A study of Mus musculus with 12 samples.

Results

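H3K9me3 and H3K27ac were examined at mouse zinc finger genes named Zfp in neural progenitors with and without SETDB1. Members were the regions of the deposited H3K9me3 table on chromosomes 1 to 19 whose gene symbol starts with Zfp and a digit. They were 362 of 50654 listed regions and carried the symbols of 165 of the 5667 genes with a listed region. The reference annotation (GRCm38) holds 406 genes of that name on these chromosomes, so 241 had no region listed under their current symbol. Regions listed under older names were not matched to genes here. Matching them to current symbols adds Zfp regions (counts are given with the chromosome 4 cluster), so some of the 241 are likely to have one. Throughout, Zfp genes with and without a listed region are split by the symbols as listed, without that matching. On X, 4 regions at such genes were not used. The symbol alone chose the members, and it takes in genes outside the KRAB type, such as Zfp423 and Zfp804b. Whether each protein has a KRAB box was not checked.

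KRAB zinc finger proteins bind DNA through an array of C2H2 zinc fingers. Their KRAB box recruits TRIM28, a scaffold protein that brings in SETDB1, the methyltransferase that places H3K9me3, a mark of silenced chromatin. Many of these proteins silence transposable elements. Their genes lie in tandem clusters of related copies, the finger array is usually encoded by the last exon, and the gene bodies are themselves known to carry H3K9me3.

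The libraries came from neurosphere cultures of ganglionic eminence, the embryonic source of cortical interneurons, taken from C57BL/6 embryos at E15.5. KO cultures are labelled Nestin-KO, and Nestin is a gene of neural progenitors whose regulatory sequence is widely used to drive Cre. WT cultures are the controls. For H3K9me3 there were 3 KO animals, all male, and 3 WT animals, of which 2 were female and 1 male. For H3K27ac, a mark of active promoters and enhancers, there were 3 animals per genotype, 1 female and 2 male in each. Sex is thus mixed with genotype for H3K9me3, and its part was not tested, because the table joins 3 values per genotype without naming their animals. The first number of the library titles, whose meaning is not stated, is mixed with genotype for H3K9me3 as well, with 304 on 1 library of each genotype, 464 on 2 WT and 508 on 2 KO libraries. For H3K27ac it is balanced, with 508 on 1 and 2982 on 2 libraries of each genotype. Values are called by their place in the list, and places carry no order. All members are autosomal. Neither mark measures the Setdb1 product, so the genotype labels were not checked on it. In the H3K27ac lists 5 to 10 of 10 neural progenitor markers had a peak in each library, against 0 to 2 of 12 ganglionic eminence markers (Gad1, Dlx1, Nkx2-1 and others), 0 of 5 cortical excitatory markers and 0 to 2 of 5 microglial markers. Vascular markers had 1 of 4 with a peak in each library (Pecam1), oligodendrocyte markers 0 to 2 of 3 and germ cell markers 0 to 1 of 2. The ganglionic eminence identity in the label was thus largely without a peak at its defining genes.

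The H3K9me3 values are normalised reads per region, and they turned out to be whole reads times a constant for each place. Reads in the 362 Zfp regions were 6600, 39373 and 46676 at the KO places and 40082, 108193 and 116811 at the WT places, a median of 9, 56 and 70 and of 51, 129 and 133 per region. The first KO value is the least precise. In all listed regions, 26 of them held 70.4% to 91.8% of the reads of each place. The third KO value was the highest of the KO values at 336 of 362 Zfp regions (92.8%), as at 73.8% of all listed regions. The authors listed only regions they had selected for a difference between these same libraries, so tests on them are not independent of that choice.

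Only 5 of the 362 regions fell in the authors' classes nearest to a start site (proximal promoter and promoter within 1 kb), at Zfp872, Zfp873, Zfp97, Zfp951 and Zfp445. For each, the 250 bases upstream of the RefSeq start (GRCm38.p6) of the transcript that the authors' deposited table names are shown, because H3K27ac peaks also crossed these 5 regions in some libraries. Capitals mark CpG dinucleotides. They lie at chr9:22187916-22188165 (plus strand) for Zfp872, chr10:82047877-82048126 (plus) for Zfp873, chr17:17121133-17121382 (plus) for Zfp97, chr5:104860069-104860318 (minus) for Zfp951 and chr9:122866007-122866256 (minus) for Zfp445.
Zfp872: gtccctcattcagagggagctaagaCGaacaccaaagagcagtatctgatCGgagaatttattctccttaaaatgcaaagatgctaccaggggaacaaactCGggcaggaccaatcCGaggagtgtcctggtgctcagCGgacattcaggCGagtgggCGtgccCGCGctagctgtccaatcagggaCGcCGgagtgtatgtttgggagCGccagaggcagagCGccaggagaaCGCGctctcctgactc
Zfp873: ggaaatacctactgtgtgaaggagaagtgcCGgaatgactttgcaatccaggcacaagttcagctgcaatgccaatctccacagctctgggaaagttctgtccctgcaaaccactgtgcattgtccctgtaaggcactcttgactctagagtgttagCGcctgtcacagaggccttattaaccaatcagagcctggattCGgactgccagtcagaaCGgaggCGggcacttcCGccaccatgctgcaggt
Zfp97: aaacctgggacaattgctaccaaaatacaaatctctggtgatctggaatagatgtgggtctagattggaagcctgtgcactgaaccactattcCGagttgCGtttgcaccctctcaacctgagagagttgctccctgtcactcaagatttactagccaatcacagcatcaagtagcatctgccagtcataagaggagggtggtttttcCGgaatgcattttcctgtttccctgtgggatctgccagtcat
Zfp951: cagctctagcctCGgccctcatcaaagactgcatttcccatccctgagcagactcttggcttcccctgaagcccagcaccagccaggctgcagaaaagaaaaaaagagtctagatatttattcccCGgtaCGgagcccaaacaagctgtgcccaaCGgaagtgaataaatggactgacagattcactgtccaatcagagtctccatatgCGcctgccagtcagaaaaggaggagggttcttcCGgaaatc
Zfp445: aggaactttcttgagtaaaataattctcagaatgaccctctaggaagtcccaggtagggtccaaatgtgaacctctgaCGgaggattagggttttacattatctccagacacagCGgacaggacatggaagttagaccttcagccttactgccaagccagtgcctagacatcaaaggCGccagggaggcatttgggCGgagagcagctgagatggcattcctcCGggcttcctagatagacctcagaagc
The first 4 lie wholly inside a listed H3K9me3 region, and 156 of the 250 bases do so for Zfp445. The reference also has starts farther upstream, so the printed start of Zfp445 lies 20845 bp inside the reference gene and that of Zfp97 275 bp. An H3K27ac peak reached the printed bases themselves in 1 KO and 0 WT libraries at Zfp872, 1 and 2 at Zfp873, 3 and 3 at Zfp97, 2 and 2 at Zfp951 and 2 and 1 at Zfp445. The sequences hold 15, 6, 3, 6 and 5 CpG in that order. Before the most upstream start of 330 Zfp genes with an entry the median was 10 CpG in 250 bases, and 52.4% had 10 or more, against a median of 6 and 38.2% over the 27025 genes of the table. Zfp genes with a listed H3K9me3 region had a median of 8.5 CpG (140 genes). Those without one under their current symbol had a median of 12 (190 genes).

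H3K9me3 was lower in KO at nearly every region listed under a Zfp symbol. Under current symbols the set grows and its share of higher regions rises (counts are given with the chromosome 4 cluster). The median Zfp region had 22.9, 24.4 and 58.8 normalised reads at the KO places and 90.4, 106 and 96.4 at the WT places. The 3 KO values all lay below the 3 WT values at 318 of 362 regions (87.8%, against 54.2% of all listed regions) and all above them at 4 (20.2% of all listed regions). Of the Zfp regions 354 were lower in KO and 8 higher in the authors' deposited table, where 71.1% of all listed regions were lower and 28.9% higher. In bulk libraries fewer cells carrying a mark and less mark per cell cannot be told apart. By gene, 160 were lower only, 2 higher only and 3 had regions of both kinds. The authors' deposited table gives Zfp regions a median log2 fold change of -1.67, with quartiles of -2.0 and -1.29, against -0.95 for all autosomal listed regions and -1.12 for the other autosomal regions in genes.

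limma on log2(value + 1), with Benjamini-Hochberg adjustment over all 50654 regions at 0.05, called 207 Zfp regions lower (57.2%) and 0 higher. Of all listed regions 14.9% were called lower and 1.24% higher. Leading regions share the smallest adjusted p, a tie that the adjustment produces. At an unadjusted p of 0.05 the counts were 313 and 1. The regions called lower belong to 118 of the 165 genes. On reads recovered from the values, limma-voom called 334 Zfp regions lower and 2 higher, against 58.0% and 14.1% of all regions, and its 334 include all 207. The median KO minus WT difference was -1.85 on the log2(value + 1) scale for Zfp regions and -1.04 for all. Scaling each place to the median ratio over listed autosomal regions moved the median of all regions to -0.23 and that of Zfp regions to -1.05, with 337 of 362 below 0. After that scaling limma called 152 Zfp regions lower and 7 higher, against 6.06% and 27.7% of all regions, and 151 of the 152 were among the 207. The smallest adjusted p was 0.0471 with all 6 values. Without the first or second KO value or any 1 of the WT values limma called 0 Zfp regions lower (smallest adjusted p at a Zfp region 0.0552 to 0.15, with 246 to 300 lower at an unadjusted p of 0.05), and without the third KO value it called 338. limma-voom without 1 value in turn called 162 (without the second KO value) to 336.

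**Figure D1:**
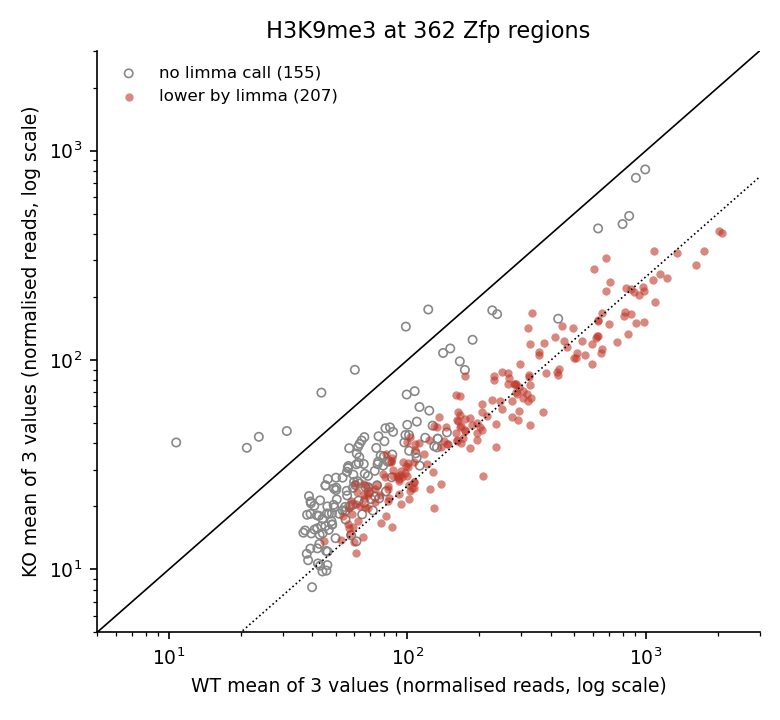
Mean KO against mean WT value of each Zfp region in normalised reads, both axes on a log scale. The solid line marks equal values and the dotted line a KO value at 0.25 of WT; filled points are the 207 regions called lower by limma, and the 8 regions above the solid line are those listed as higher in KO.

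Regions were also split by their WT mean. That mean is the base of the fold as well, so a high class favours a larger drop and a low class a smaller one, and Zfp regions are best read against other autosomal regions of the same class. All 47 Zfp regions with a WT mean of 500 normalised reads or more were lower in KO in the authors' deposited table, with a median of -2.24, against 83.7% and -0.89 for 343 others. From 250 to 500 reads all 41 Zfp regions were lower (median -1.99), against 85.2% of 785 others (-1.01). From 100 to 250 reads it was 98.9% of 90 Zfp regions (-1.74), against 91.0% of others (-1.15). From 50 to 100 reads it was 98.5% of 131 (-1.49), against 89.8% (-1.13). In every class the Zfp share was the higher one and the Zfp median the lower one. Below 50 reads 48 of 53 Zfp regions were lower (90.6%, median -1.38), against 47.2% of others (0.60). Every listed region had been selected for a difference, and this holds for the low regions too. Regions at least 5 kb wide numbered 74, all of them lower, with 70 called by limma (94.6%) and a median of -2.15 in the authors' deposited table. Of 765 other autosomal regions that wide 82.6% were lower and 63.5% called, with a median of -1.08, and their median WT mean was 362 reads against 622 for the Zfp regions.

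The highest WT level was at Zfp960, a zinc finger gene of chromosome 17. Its region chr17:17068001-17095200, in the gene body, had 222, 307 and 686 normalised reads in KO and 1603, 2346 and 2286 in WT. The highest KO value lay well below the lowest WT value, a gap that choosing by WT level favours. The limma difference was -2.50 ± 0.40 (SE, adjusted p = 0.0471). At 32.3 kb the widest region covered the body of Zfp781, chr10:81895401-81927700, with 321, 215 and 705 in KO and 1785, 2128 and 2176 in WT (-2.46 ± 0.40 in limma, adjusted p = 0.0471). The groups did not overlap there either.

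The smallest limma p belonged to a second stretch that the authors' deposited table assigns to Zfp781, chr10:81755501-81761400. KO values were 28.0, 41.0 and 77.3 and WT values 355, 297 and 328. A gap between the groups is favoured by the choice by p and is no further support. Its limma difference was -2.84 ± 0.37 (SE, adjusted p = 0.0471). The reference places Gm3055 at that position and Zfp781 elsewhere in the cluster, so the stretch carries the symbol through a second placement of its transcript. Of the 362 regions 9 lie on such second placements, 5 named Zfp781 and 4 named Zfp433, and without them the counts were 345 lower and 8 higher in the authors' deposited table and 200 lower in limma. Values of single genes within a cluster are uncertain, since the labels do not state how reads that fit several near-identical copies were handled.

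The other leading regions were gene-body stretches with the same order of values. They too were chosen by the smallest limma p on these values, which favours groups that do not overlap. Zfp442 on chromosome 2 (150419601 to 150427000) had 63.7, 59.7 and 132 in KO and 477, 408 and 398 in WT. Zfp433 on chromosome 10 (81706301 to 81711500) had 45.9, 33.1 and 69.8 against 234, 263 and 211. Zfp946 on chromosome 17 (22454301 to 22457600) had 43.3, 34.0 and 60.5 against 183, 172 and 170, with a WT SD of 6.85. In these regions no KO value reached the lowest WT value. Zfp808 on chromosome 13 (62164301 to 62178300) had 213 ± 121 in KO and 986 ± 85.0 in WT (SD, n = 3), and Zfp606 on chromosome 7 (12485501 to 12500500) 257 ± 129 and 1140 ± 187. Zfp81 and Zfp763 on chromosome 17 had 44.9 ± 16.1 against 195 ± 31.8 and 122 ± 92.3 against 759 ± 115. Their limma differences ran from -2.87 to -1.94, each with an adjusted p of 0.0471 and with KO below WT in every value. Zfp316 on chromosome 5 (143253501 to 143256200) had the largest fold of any Zfp region in the authors' deposited table, -2.89.

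**Figure D2:**
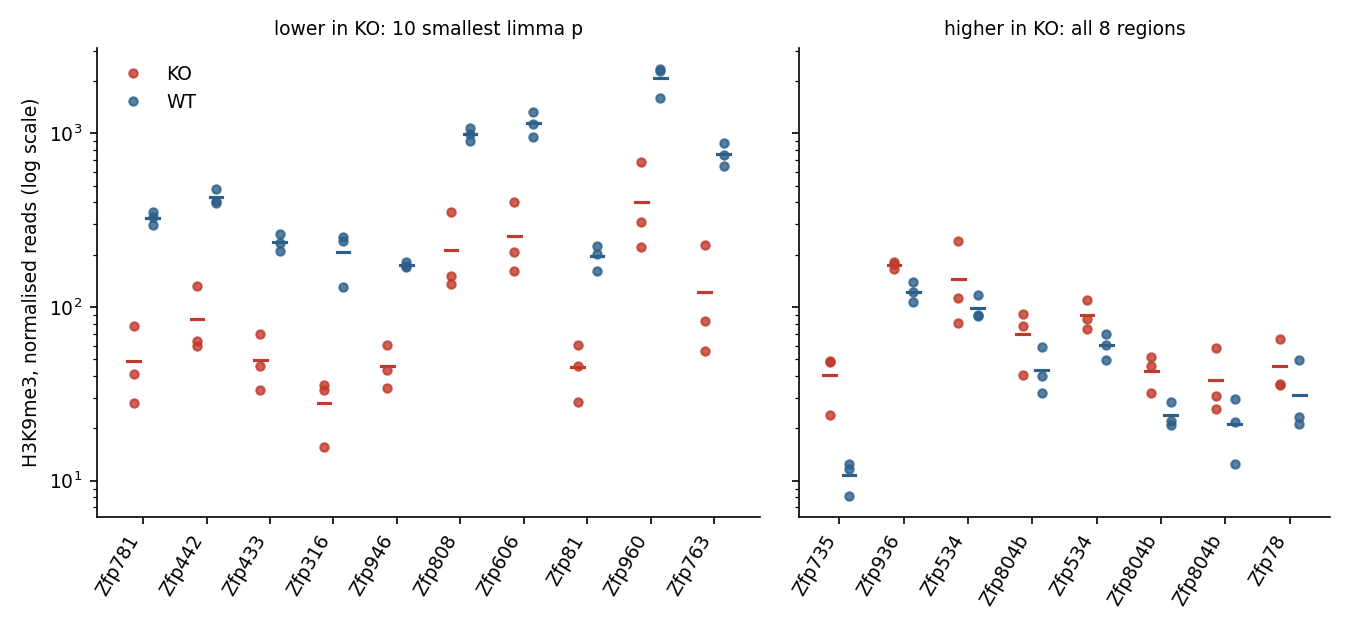
H3K9me3 in normalised reads (log scale) at the 10 Zfp genes with the smallest limma p (left) and at the 8 Zfp regions listed as higher in KO (right). Points are the 3 listed values of each genotype and bars their means. KO and WT do not overlap at any of the 10, which were chosen by p on these same values. That choice favours such a gap, so it is no further support. At the 8, chosen by direction, they overlap at 4.

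The strongest region of a Zfp gene usually lay towards the end of the gene. Taking for each gene the listed region with the highest WT mean, its midpoint fell at 80 to 100% of the gene's length for 81 of 165 Zfp genes (49.1%), with a median position of 81.6%. Among 3070 other genes of 10 to 131 kb, 458 had it there (14.9%), with a median of 45.1%. That range is the 5th to 95th percentile of gene length over the 362 Zfp regions, and the Zfp genes were not held to it. Median gene length was 17.1 kb for the Zfp genes and 46.2 kb for the others, so the sets differ in length. Zfp946 (97.7%), Zfp458 (94.8%), Zfp808 (94.0%) and Zfp810 (89.6%) are examples of a position near the end, and Zfp600 (36.7%) and Zfp445 (32.2%) are not. Over all 362 regions 28.7% lay at 80 to 100% and 10.2% at 0 to 20%. This is the side of the gene where the finger-coding exon usually sits, but exons were not mapped here.

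**Figure D3:**
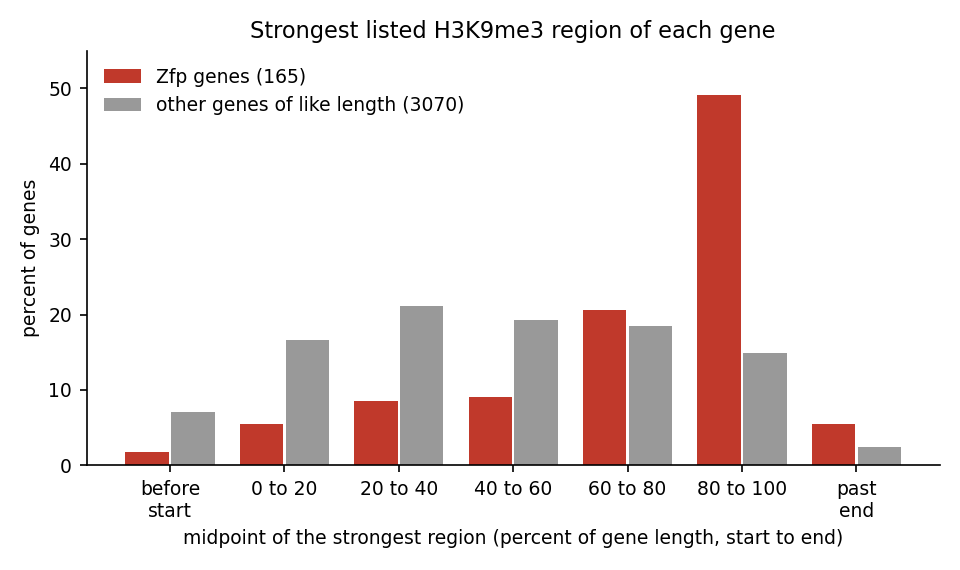
Share of genes by where the listed H3K9me3 region with the highest WT mean lies along the gene, for 165 Zfp genes and 3070 other genes of 10 to 131 kb. Zfp genes peak at 49.1% in the bin of 80 to 100%, and no bin of the other genes exceeds 21.2%. Median gene length was 17.1 kb for the Zfp genes and 46.2 kb for the others.

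Zfp genes joined over gaps of at most 500 kb formed 34 clusters of 3 or more genes, with 247 of the 406 genes. Of these clusters 28 had listed regions, 249 in all at 115 genes, and 25 had only lower regions in the authors' deposited table. The largest number, 34 regions at 13 of 23 genes, lay in the chromosome 17 cluster at 21008941 to 23599755, all lower and 21 by limma. Its strongest region, at Zfp945 (22845501 to 22858300), had 73.9, 95.9 and 340 in KO and 743, 860 and 838 in WT. The chromosome 13 cluster at 66670274 to 67827000 had 24 lower regions of 24, led by Zfp458 with KO values of 96.8, 115 and 291 and WT values of 667, 714 and 587. In the chromosome 10 cluster with Zfp433, Zfp781 and Zfp873 all 18 regions were lower, with a median of -2.27 among the log2 fold changes of the authors' deposited table. Zfp937 (chromosome 2), Zfp146 (chromosome 7), Zfp810 (chromosome 9) and Zfp763 (chromosome 17) led the other large clusters, with limma differences from -2.87 to -2.27. No Zfp region was listed under current symbols for the 10 genes of the 2 clusters at the end of chromosome 2, from Zfp968 to Zfp931.

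The chromosome 4 cluster at 145510759 to 147849126 stood apart from these. Only 3 of its 16 Zfp genes had a region under the table's symbols, and of 17 regions 15 were lower and 2 higher in the authors' deposited table, with a median of -0.54 and 2 called by limma. After median-ratio scaling only 3 of the 17 were below 0 and the median was 0.27, the one cluster median of 28 that turned positive. That scaling centres regions that were selected for a difference and are mostly lower in KO. It raised all 28 cluster medians, so a median near 0 is the first to change sign. Zfp600 had the most regions of any Zfp gene, 9. At its strongest (146170501 to 146175000) KO values were 935, 764 and 741 and WT values 1026, 901 and 1053, which overlap. Its limma difference was -0.29 ± 0.22 (SE, adjusted p = 0.224), and 0.54 after median-ratio scaling, which put 8 of its 9 regions above 0. Zfp534, with 3 lower and 2 higher regions, lies in the same cluster. Nearest in median was the chromosome 7 cluster at 42473386 to 43618279, at -0.915 in the authors' deposited table. It had 5 lower and 1 higher region, with 2 called by limma. After median-ratio scaling 3 of its 6 regions were below 0 and its median was -0.0873. Counted under current symbols, which add regions listed under older names, the authors' deposited table has 486 lower and 34 higher Zfp regions.

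Other listed regions also lay among the Zfp genes. Some of them may belong to Zfp genes under older names, so they are not a set free of Zfp genes. Inside the cluster spans lay 933 listed regions with another symbol or none, of which 779 were lower (83.5%) and 154 higher in the authors' deposited table, with 188 called lower by limma (20.2%) and a median of -0.72. Over the 46654 other autosomal regions outside the spans 70.1% were lower and 14.8% called, with a median of -0.94. Without the chromosome 4 cluster the counts were 504 lower and 90 higher of 594. Outside clusters the 113 Zfp regions of 50 genes had 109 lower and 4 higher. Zfp950 on chromosome 19 is an example with 7 regions, all lower. Its strongest had 20.4, 61.5 and 207 in KO and 509, 609 and 674 in WT. Other genes with many lower regions were Zfp942 (8 regions), Zfp442, Zfp934 and Zfp951 (7 each).

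**Figure D4:**
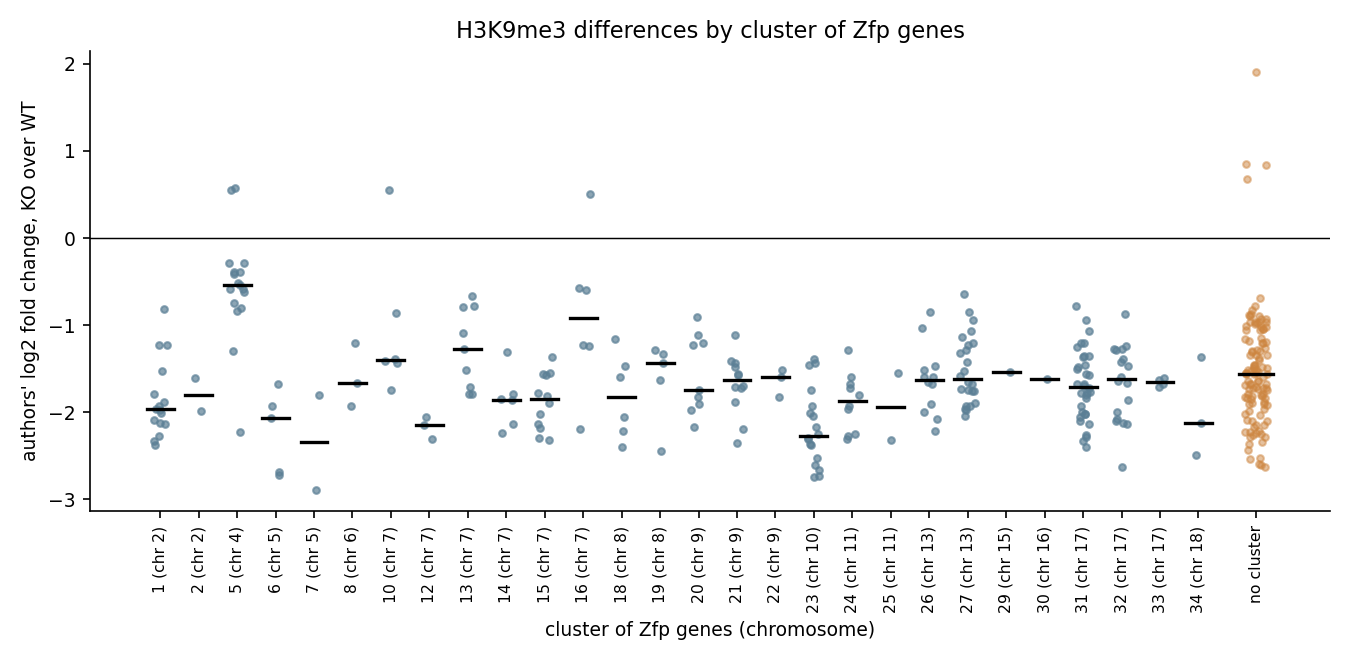
The authors' log2 fold change, KO over WT, of each Zfp region by cluster, with the cluster's median as a bar; the last column holds the 113 regions outside clusters. The chromosome 4 cluster (5) has a median of -0.54 and the chromosome 10 cluster (23) one of -2.27.

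By annotation, gene bodies held 332 of the 362 regions, 326 of them lower in the authors' deposited table (98.2%, against 82.3% of other autosomal gene-body regions). The outer promoter class, within 3 kb, held 25, of which 23 were lower, where 54.3% of others were. The 5 regions nearest to starts were all lower, where 39.4% (within 1 kb) and 41.3% (proximal) of others were. Of these 5 only Zfp872 passed limma.

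The 8 higher regions belong to Zfp735, Zfp936, Zfp534, Zfp804b and Zfp78, and none passed limma. Zfp735 on chromosome 11 (73690301 to 73691300) had 48.4, 24.0 and 48.8 in KO and 12.4, 8.20 and 11.6 in WT. Its groups did not overlap, and the difference was 1.77 ± 0.65 (SE, adjusted p = 0.0635 by limma and 0.122 by limma-voom). Zfp936 on chromosome 7 (43173801 to 43176000) had 181, 176 and 166 in KO and 106, 121 and 139 in WT, also without overlap (0.52 ± 0.24, adjusted p = 0.0897 by limma and 0.0441 by limma-voom). Zfp804b, a long gene that is not of the KRAB type, had 3 higher and 2 lower regions, with KO means from 38.1 to 69.9 and WT means from 21.2 to 43.6 at the higher ones. limma-voom called the one at 6964801 to 6965900 on chromosome 5 (adjusted p = 0.0467), and median-ratio scaling put 7 of the 8 past the limma threshold.

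Zfp genes of known role were mixed as to whether they had a region at all. Zfp809, which recognises retroviral sequence and silences murine leukaemia viruses, had 4 regions. The widest (chromosome 9, 22240401 to 22247700) had 73.9, 64.5 and 221 in KO and 296, 377 and 302 in WT, with no overlap (-1.66 ± 0.44, adjusted p = 0.0475 in limma). Zfp932, a repressor of endogenous retroviruses, had 3, the strongest (chromosome 5, 110003301 to 110012400) with 20.4, 68.9 and 234 against 480, 800 and 666 (-3.17 ± 0.72, adjusted p = 0.0471). Zfp445, which helps to maintain genomic imprints, had a gene-body region (chromosome 9, 122858201 to 122862800) with 20.4, 33.1 and 140 against 195, 277 and 207 (-2.26 ± 0.60, adjusted p = 0.0478). In these 3 regions KO lay below WT in every value. Zfp708 had 3 regions and Zfp961 and Zfp612 2 each, with limma differences from -2.66 to -1.04 and 5 of the 7 called. Zfp423, a regulator of neural progenitors, had 1 region with 5.09, 14.8 and 37.0 in KO and 37.2, 72.2 and 55.1 in WT (adjusted p = 0.0633 in limma), and the 2 at Zfp536 had adjusted p-values of 0.111 and 0.0806. Zfp57 and Zfp568, both KRAB proteins of imprint and growth control, had no region listed under these symbols. Nor did Zfp42, Zfp281, Zfp422, Zfp521, Zfp266, Zfp462 or Zfp853.

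In a list of genes of the silencing machinery that KRAB proteins recruit and of related chromatin regulators, 8 of 33 had a listed region. Not every gene of the list is known to be recruited by KRAB proteins. Of their 23 regions 22 were lower and 1 higher in the authors' deposited table, and limma called 10 lower (43.5%) and 0 higher. Among all other autosomal regions in genes 77.9% were lower and 17.8% called lower. Trim24 and Atf7ip held most of the 23 regions and of the 10 calls, so these are not spread evenly over the 8 genes. Trim24, a relative of Trim28, had 6 regions, the strongest (chromosome 6, 37873201 to 37879000) with 89.0 ± 75.7 in KO and 393 ± 126 in WT (SD, n = 3) (-2.40 ± 0.54, adjusted p = 0.0471). Atf7ip, the partner that stabilises SETDB1, had 9, with authors' deposited table values from -2.88 to -1.29 and 2 called by limma. The 1 higher region was at Uhrf1 (39.8 ± 9.52 in KO, 24.2 ± 6.81 in WT, adjusted p = 0.129 in limma). Other families named for zinc fingers differed in direction in the authors' deposited table. Zbtb genes (BTB domain) had 24 regions, all lower, at 6 of 41 genes and mostly at Zbtb7c and Zbtb20. Zkscan genes had 4, all lower, at 3 of 11 genes. Zscan genes had 2 lower and 6 higher, at 6 of 21 genes. limma called 7 of 24, 1 of 4 and 0 of 8 of these lower and 0 higher, to be read against the same shares in genes. These families were not tested against the Zfp genes.

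H3K27ac peaks were common at Zfp genes in both genotypes. In or within 1 kb of the 406 genes, 332, 340 and 206 had a peak in the KO libraries and 334, 333 and 239 in the WT libraries. KO libraries averaged 293 ± 75.2 genes (SD, n = 3) and WT libraries 302 ± 54.6 (SD, n = 3). The difference of -9.33 is smaller than the spread between libraries. The third library of each genotype was low, and its list was short, with 11446 peaks in KO and 12446 in WT against 26344 to 42651 in the others. With the 11446 strongest peaks of each library, 280, 250 and 206 genes had one in KO and 269, 265 and 232 in WT. Without the short lists the difference was 2.5, and among libraries with title number 508 and 2982 it was -2 and -13.

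Zfp genes had a peak in 50.7% to 83.7% of cases per library, where other protein-coding genes had one in 29.0% to 56.8% of cases. A peak in all 6 libraries was found at 165 Zfp genes (40.6%) against 22.2% of the others. Those with a listed H3K9me3 region had peaks as well, with 150, 155 and 98 of 165 in KO and 151, 148 and 110 in WT. Taking the strongest peak per gene and library, 1296 of 1465 (88.5%, over 330 genes) lay within 1 kb of a RefSeq start. Among the 39 genes whose strongest H3K9me3 region had 500 or more reads in WT, 24 had an H3K27ac peak in all 6 libraries (61.5%) and 2 had none. Of all 165 listed Zfp genes 50.9% had a peak in all 6. Zfp960 and Zfp808, among the genes with the most H3K9me3 in the body, had peaks in all 6. Zfp781, with the widest region, had none in the third KO library.

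**Figure D5:**
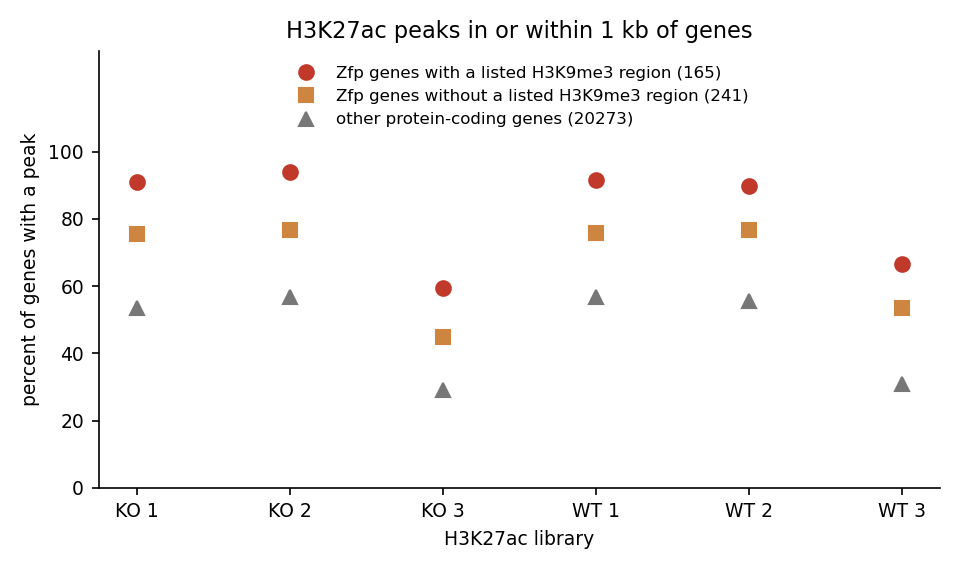
Percent of genes with an H3K27ac peak in or within 1 kb, per library. Zfp genes are split by whether an H3K9me3 region is listed under their current symbol, beside other protein-coding genes. Both Zfp groups lie above the others in all 6 libraries, and the third library of each genotype is the lowest of its genotype.

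Few H3K9me3 regions of Zfp genes were crossed by an H3K27ac peak. The counts were 10, 9 and 5 of 362 in KO and 5, 5 and 4 in WT. Their difference of 3.33 exceeded the pooled spread between libraries (SD 1.91), and the groups overlapped. With an overlap of at least 200 bp it was 1.33, and among libraries with title number 508 and 2982 it was 5 and 2.5. Over all autosomal regions 0.853%, 1.39% and 0.663% were crossed in KO and 0.561%, 0.774% and 0.576% in WT. The start regions of Zfp873 and Zfp97, whose sequences are given above, were crossed in all 6 libraries. H3K9me3 at the Zfp873 start was 0, 9.59 and 26.9 in KO and 53.2, 51.7 and 34.1 in WT, and at that of Zfp97 10.2, 32.3 and 36.1 against 56.7, 68.9 and 53.7. KO lay below WT in every value at both, yet neither passed limma (adjusted p = 0.0908 and 0.0628). At the Zfp951 start a peak was present in 2 libraries of each genotype, and at that of Zfp445 in 2 KO and 1 WT library.

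Zfp872 and Zfp991 were the 2 Zfp genes with a peak in all 3 KO libraries and in no WT library, and 0 had the converse. Over Zfp and other protein-coding genes together the shares were 0.0242% and 0%. Zfp872 is a zinc finger gene of chromosome 9 (22188166 to 22202123). Its H3K27ac peaks in KO had highest fold enrichments of 4.86, 5.33 and 3.92 by the authors' caller. In the first and second library that peak lay at the start, 85 and 0 bp from it, and in the third 12543 bp downstream. All 3 KO libraries had peaks between 22199663 and 22201242, with a highest -log10 q of 4.33, 11.8 and 3.78. They lay inside the listed H3K9me3 region at the end of the gene (22198201 to 22202100). There H3K9me3 was 40.8, 43.2 and 145 in KO and 215, 288 and 341 in WT (-2.10 ± 0.47, adjusted p = 0.0471 in limma). The start region (22186201 to 22188400), whose promoter sequence with 15 CpG is shown above, had 30.6, 19.6 and 42.0 against 78.0, 100 and 125 (-1.72 ± 0.37, adjusted p = 0.0471). KO lay below WT in every value at both. After median-ratio scaling the limma difference was -1.28 at the end region (adjusted p = 0.0221) and -0.905 at the start region (adjusted p = 0.0683). A middle region (22190501 to 22192500) overlapped between genotypes, with an adjusted p of 0.0646. H3K27ac peaks crossed the end region in 3 KO libraries and the start region in 2, and neither in WT. Zfp872 was chosen for having peaks only in KO. By the authors' log2 fold change all 3 of its regions were lower in KO, as were 354 of the 362 Zfp regions. A peak over a Zfp region thus nearly always meets lower H3K9me3, so this overlap cannot show a link between the marks, which was not tested. Zfp991, in the chromosome 4 cluster, had 1 peak per KO library at different positions, with folds of 5.99, 4.58 and 4.14, and no H3K9me3 region under its symbol.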

How the data were processed

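Native ChIP-seq libraries were made from 100000 nuclei each, per the labels' protocols, and processed on mm10 with Bowtie2 2.3.4.3 and MACS2, per the submitters' processing notes. Each library is from its own animal, as the series design states. The members and gene lists were chosen with earlier results of these data known.

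For H3K9me3 the authors deposited 1 table of selected regions, and no source names the tool that compared genotypes. Its group values are a normalised signal, deposited as 3 joined values per genotype. Deposited beside them are enrichments, each a ratio, and for every region the authors' log2 fold change and p-value. Low values were whole multiples of 1 step at each place (100% within 0.1 reads), from which reads were recovered. For H3K27ac the authors deposited 1 peak list per library, in which the score, fold enrichment and -log10 p and q are the authors' own and served to describe, rank or filter the peaks of a list, not to compare lists. The depth of those libraries is unknown.

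The log2(value + 1) values were fitted with limma 3.58.1 in R 4.3.3 over all 50654 regions with a mean-variance trend. At low regions differences on this scale can exceed the authors' log2 fold changes or fall short of them. At the Zfp873 start, with a KO value of 0, they were -2.80 and -1.93, and at Zfp735 1.77 and 1.91. Clusters and H3K27ac overlaps (1 bp) used RefSeq gene coordinates of GRCm38 (Python 3.11.15). Alternatives covered the pseudocount, scaling, filter, trend, limma-voom, thresholds, symbols, overlap and left-out libraries. Named genes are the 10 lower regions with the smallest limma p, the higher regions, cluster leaders, genes with the most or widest regions, genes with 1-genotype H3K27ac or both marks, a list of known roles and the silencing machinery. H3K27ac at Zfp960, Zfp808 and Zfp781, Zfp960 as the highest WT level and the examples of position were chosen after their values were seen.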

Additional observations from a re-analysis of the deposited data

How the results depend on the processing

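In limma the count of lower Zfp regions (207) was 0 without the trend, 334 with limma-voom and 329 at an adjusted p of 0.1, and leaving out 1 listed value at a time gave 0 to 338, or 162 to 336 with limma-voom (318 and 162 without the first and second KO value, 326, 305 and 325 without each WT value). Without the trend limma called 0 of all regions, while 304 lower and 2 higher Zfp regions had an unadjusted p under 0.05. All 207 calls lie between an adjusted p of 0.0471 and the threshold of 0.05. The higher count (0) was 1 with a pseudocount of 5, 7 after median-ratio scaling, 2 with limma-voom, 3 at an adjusted p of 0.1, 0 when 1 value was left out, and 0 to 4 with limma-voom. The 8 higher regions of the authors' deposited table became 1 at an adjusted p of 1e-10, 1 at an absolute log2 fold change of 1 or more, 34 under current symbols and 25 after median-ratio scaling, where the lower count went from 354 to 337. By sign alone, leaving out 1 value gave 354 to 355 lower and 7 to 8 higher. The median log2 difference of -1.85 became -1.05 after median-ratio scaling and -2.38 to -1.51 without 1 value. The difference in crossed regions, 3.33, became 1.33 with an overlap of 200 bp and 2.33 to 4.83 without 1 library. The difference in Zfp genes with H3K27ac, -9.33, was 2.0 with peaks of -log10 q of at least 5 and -40.8 to 34.0 without 1 library, within the spread. Clusters numbered 32 and 33 with gaps of 250 kb and 1 Mb. Of 702 settings over 54 named regions, 454 kept direction and side of the threshold, 209 lost the call, 37 gained one and 2 reversed: Zfp600 at 0.54 after median-ratio scaling and the Zfp534 region at 147690701 at -0.0319 without the first KO value (0.7433 without the second). The cause of these changes was not tested. The alternative restricted to genes with a KRAB box was not run, because no protein sequences were used here. No paired analysis was possible because the listed H3K9me3 values carry no animal and no label gives H3K27ac libraries matching replicate numbers. With the first title number as a block the H3K27ac differences stayed at -9.33 and 3.33, since that number is balanced. Leaving values out of limma-voom and of the authors' counts, and leaving out second placements, the chromosome 4 cluster or the short H3K27ac lists, and the title number, were alternatives added after seeing the data.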
